A study of Mus musculus with 21 samples.

Results

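Of 31883 genes in the newborn table, 39 protein-coding genes belong to the fibroblast growth factor (FGF) system by name, and they are described here in the mouse subcommissural organ (SCO) and hippocampus. They were taken by gene symbol from an allowed set of 43 names: the FGF ligands, the receptors Fgfr1 to Fgfr4 and Fgfrl1, the Sprouty, Spred, Dusp4, Dusp6 and Il17rd feedback inhibitors, the ETS factors Etv1, Etv4 and Etv5, and the FLRT membrane proteins. Fgf6, Fgf8, Fgf21 and Spry3 are not analysed here. Bulk RNA sequencing had been done on 5 hippocampus and 4 SCO libraries from C57BL/6 mice on postnatal day 0, with no genotype or treatment named in the labels. The series holds 21 samples, and its 12 samples of postnatal day 60 are not analysed here. The labels name replicates without tying them to separate animals, so a p-value here covers the spread among these libraries only, and that spread may be technical.

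FGF ligands bind receptor tyrosine kinases together with heparan sulfate, and the activated receptors signal through RAS and the ERK kinases. ERK signalling raises the ETS factors and also its own brakes, the Sprouty, Spred and Dusp proteins, so these genes are commonly read as targets of the pathway. Paracrine FGFs act on neighbouring cells and pattern the forebrain and midbrain, endocrine FGFs circulate, and a further branch of FGF proteins stays inside neurons. The SCO is a patch of secretory ependyma in the roof of the diencephalon, and the hippocampus is a cortical structure.

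Values are normalized counts, that is, each gene's reads over the size factor of its library, and depth ran from 36787949 to 151009954 reads in hippocampus and from 35379988 to 64242533 in SCO. The labelled tissues fitted their markers: 5 of 6 SCO markers were higher in SCO and 7 of 9 hippocampus markers lower by limma. Summed hippocampus markers ran from 111870 to 155150 in hippocampus and from 6037 to 10406 in SCO. The SCO samples also held more RNA of habenular, thalamic and pretectal neurons, whose summed markers ran from 67401 to 104290 against 11864 to 15048, with 6 of 10 markers called higher. Markers of motile cilia and ependyma summed to 24133 to 39152 in SCO against 5205 to 10113, with 5 of 10 called higher. Microglial markers ran from 26198 to 37729 against 12381 to 20683, and endothelial markers from 17022 to 20175 against 8929 to 14281, with none of 8 called in either list. Neuronal markers summed to 131040 to 263670 in SCO and 270230 to 307430 in hippocampus, with 3 of 11 called lower and 1 higher. The gene called higher, Slc17a6, also belongs to the list of habenular, thalamic and pretectal markers. Choroid plexus markers were highest in SCO replicate 4, at 188270, and in hippocampus replicate 2, at 14279. Among the choroid plexus markers Kcnj13 and Tmem72 had no read in hippocampus and Kl none in SCO. The part of these cell types in the differences below was not tested. In bulk RNA, fewer cells of a type and less RNA per cell cannot be told apart.

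**Figure D1:**
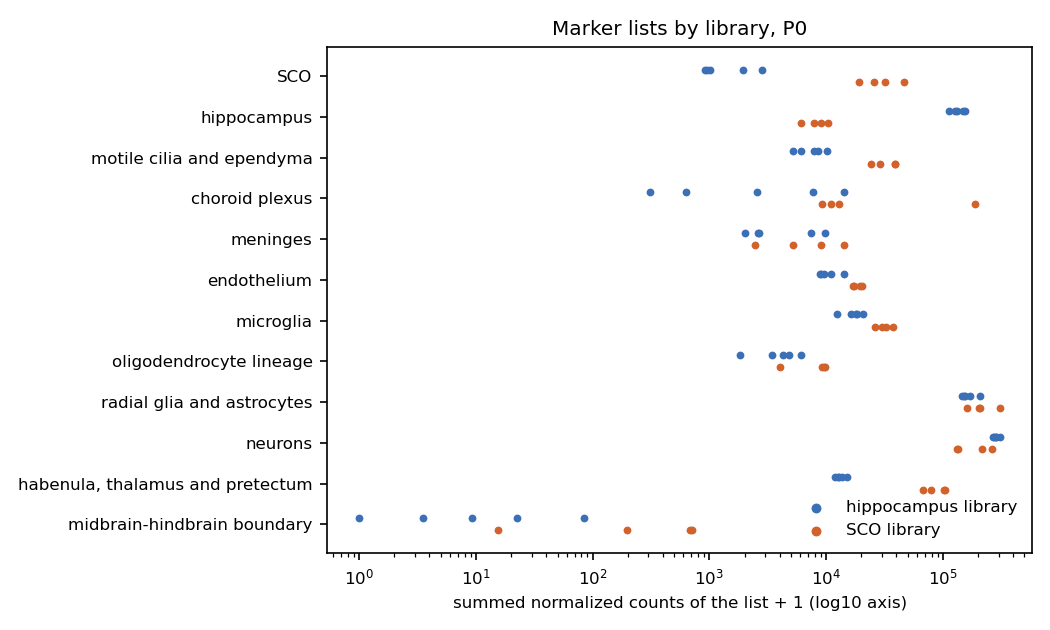
Summed normalized counts plus 1 of each marker list (log10 axis), 1 point per library, with 5 hippocampus and 4 SCO libraries. SCO markers and hippocampus markers separate the tissues without overlap, and choroid plexus markers reach 188270 in a single SCO library.

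Of the 39 genes, 37 reached a mean of 1 normalized count in either tissue and were tested by limma-trend on log2(normalized count + 1), with SCO minus hippocampus as the direction of every difference and an adjusted p under 0.05 as the call. Fgf16 and Fgf23 were not tested, since they had at most 1.03 normalized counts in any library. Of the 37, 1 gene rose in SCO and 2 fell, which is 8.11% called, where 3.05% of all 28150 genes tested were called. In each direction 1.71% of all genes were called higher and 1.34% lower. Fgf15 was the gene that rose, and Fgfr1 and Spred3 were those that fell. An unadjusted p under 0.05 was reached by 12 of the 37 genes and by 15.5% of all genes. All libraries of 1 tissue lay above all of the other for 7 of the 37 genes, 3 higher and 4 lower in SCO, and for 8.53% of all genes tested. One of those higher genes is Fgfr2, whose own level cannot be read from its listed value, as described with the receptors. The median difference of the 37 genes was -0.54 on the log2 scale against -0.04 for all genes, with 12 genes above 0 and 25 below. Setting Fgf3, the tested gene without a read in 1 tissue, to its bound left that median at -0.54.

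The other test tools moved these counts. By edgeR's quasi-likelihood test on the recovered reads, 1 of the 37 genes was called, the receptor Fgfr1 at an adjusted p of 0.023, while 1.79% of all genes were called. In the authors' deposited table, 7 of the 33 genes with an adjusted p were under 0.05, 2 above 0 and 5 below, while 12.7% of all its genes were. Those 7 were Fgf15 and Fgfr2 above 0, the latter with the same limit, and Fgf5, Fgf13, Fgfr1, Flrt1 and Flrt2 below 0.

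**Figure D2:**
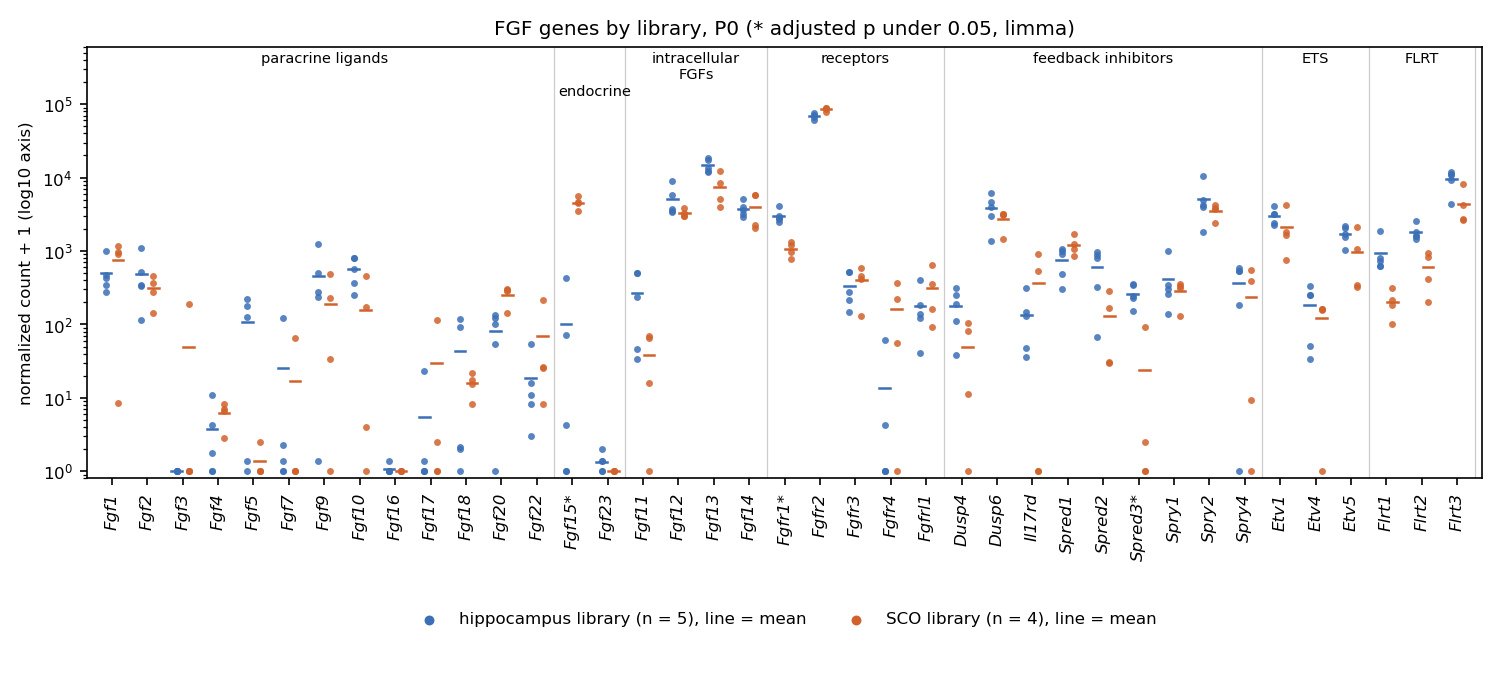
Normalized counts plus 1 (log10 axis) of the 39 FGF genes in each of 5 hippocampus and 4 SCO libraries, grouped by role, with a line at each tissue's mean and an asterisk on genes with a limma adjusted p under 0.05. All 4 SCO libraries lie above every hippocampus library for Fgf15 and below every hippocampus library for Fgfr1 and Spred3.

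Fgf15 was the FGF gene with the largest estimated difference of the 37, and it is placed among the endocrine ligands because the intestine releases it to regulate bile acid synthesis in the liver, while the embryonic neural tube also expresses it. Its normalized counts were 5591, 3532, 4519 and 4647 in SCO replicates 1 to 4. In hippocampus replicates 1 to 5 they were 0, 3.30, 70.2, 0 and 426. The SCO libraries lay within a narrow band, whereas the hippocampus libraries ran from no read to 1119 reads, with no overlap of the tissues. The mean was 4572 ± 842 (SD, n = 4) in SCO against 99.9 ± 185 (SD, n = 5) in hippocampus, a ratio of the means of 45.8. On the log2(value + 1) scale the difference was 8.74 (SE 1.70, 95% interval 4.97 to 12.51, limma adjusted p = 0.0218). This estimate exceeds the ratio of the means because 3 hippocampus libraries are at or near 0. The call ended by limma without any single SCO library, at an adjusted p of 0.0598 without replicate 1, 0.057 without replicate 2, 0.0597 without replicate 3 and 0.0546 without replicate 4. By edgeR the Fgf15 difference was 5.47 with an adjusted p of 0.157, and in the authors' deposited table it was 5.52 with an adjusted p of 0.0334.

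The position of Fgf15 bears on that value. Fgf15 (ENSMUSG00000031073.6) is a plus-strand gene of chromosome 7 (GRCm38), with its start at 144896531 and its end at 144900953. The minus-strand lncRNA gene Gm26793, from 144894560 to 144897461, covers its start, and the minus-strand lncRNA gene Gm39119, from 144899313 to 144910085, covers its end. Together they leave 1851 of the 4423 bases of the Fgf15 span and 822 of its 3058 exon bases free of an antisense gene. Whether strand was used in counting is not stated in the labels, and the counts behave as if strand was ignored, as described for Fgfr2. Recovered reads of Fgf15 were 3747, 2392, 4949 and 4152 in SCO replicates 1 to 4. Those of Gm39119 were 2961, 1706, 4042 and 3836. Those of Gm26793 were 1224, 1076, 1919 and 1364. Fgf15 held more reads than either antisense gene alone in all SCO libraries, but fewer than both antisense genes together. By normalized counts, each of the 3 genes was higher in every SCO library than in any hippocampus library. Both lncRNA genes were also called higher in SCO, Gm39119 by 8.53 (SE 1.66, limma adjusted p = 0.0218) and Gm26793 by 5.43 (SE 1.15, limma adjusted p = 0.0318). Reads of the sense and antisense genes cannot be told apart where they overlap. Hippocampus replicate 4 had 290 reads of Gm26793 and none of Fgf15 or Gm39119, and replicate 2 had 79 against 2 and 2. No hippocampus library separated Fgf15 from Gm39119, with 0, 2, 68, 0 and 1119 reads against 0, 2, 56, 0 and 952.

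**Figure D3:**
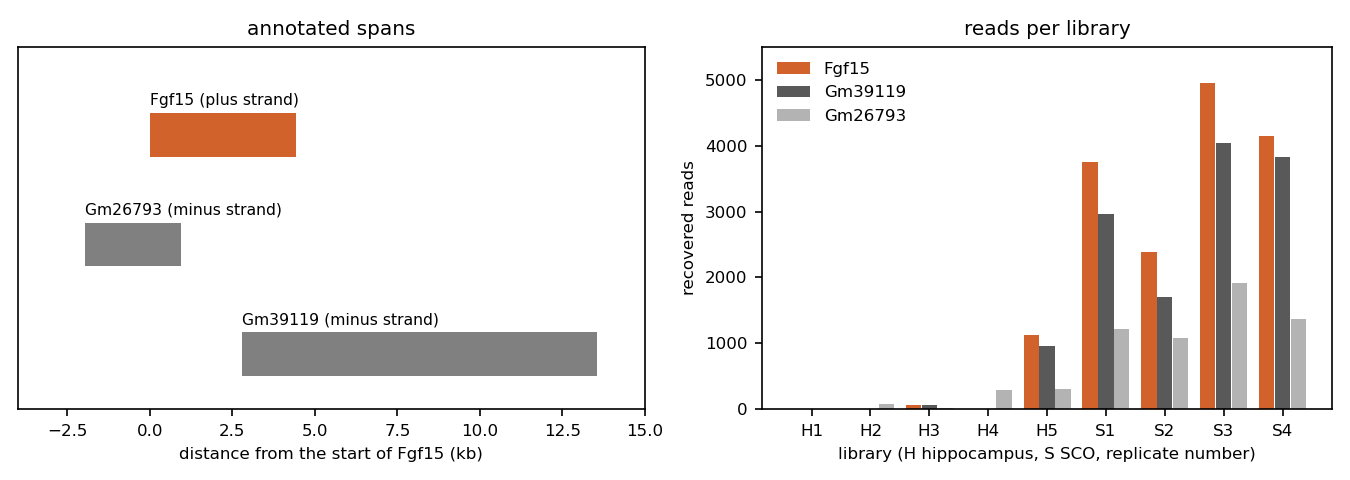
Left, annotated spans of Fgf15 and its antisense genes by distance from the start of Fgf15 in kb; right, recovered reads of each gene in the 5 hippocampus (H) and 4 SCO (S) libraries. Reads of Fgf15 reach 4949 in SCO replicate 3 and 1119 in hippocampus replicate 5, and Gm39119 follows Fgf15 from library to library. These reads are not adjusted for library depth, and by normalized count SCO replicate 1 is highest for Fgf15, at 5591.

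The FGF genes next to Fgf15 were low. Fgf3, a ligand of ear and hindbrain development, starts 58.4 kb before Fgf15 on the same strand and had 0 reads in all 5 hippocampus libraries. In SCO its normalized counts were 191, 0, 0 and 0 in replicates 1 to 4. The tissue mean of 47.7 ± 95.5 (SD, n = 4) is at least 17.0-fold higher than the hippocampus floor of 2.81 normalized counts, the mean worth of 3 reads per library. That bound covers counting error only and rests on replicate 1 alone, and Fgf3 was not called (limma adjusted p = 0.593). Fgf4, a ligand of the early embryo and limb bud, had at most 8 reads in any library. Ccnd1, the cyclin D1 gene on the other side of Fgf15, averaged 1246 normalized counts in hippocampus and 1579 in SCO.

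None of the 12 paracrine ligands tested was called, and their median difference was 0.30, with 6 above 0 and 6 below. Fgf1, acidic FGF, which binds all the FGF receptors, had normalized counts of 476, 343, 424, 273 and 993 in hippocampus replicates 1 to 5. In SCO they were 7.46, 974.6, 1169 and 904. Replicate 1 stood far below the other SCO libraries, which were at or above most hippocampus libraries. The mean was therefore higher in SCO, 764 ± 516 (SD, n = 4) against 502 ± 285 (SD, n = 5), while the log2 difference was -0.57 (SE 1.33, 95% interval -3.51 to 2.38, limma adjusted p = 0.857). Without SCO replicate 1 the difference was 1.16. Fgf1 lies within the opposite-strand span of Arhgap26, whose reads it can share. It also overlaps the opposite-strand gene Gm5820. Gm5820 had 441, 175, 79.5, 354 and 1244 in hippocampus and 1.49, 56.1, 151 and 15.7 in SCO. Like Fgf1, Gm5820 was highest of its hippocampus libraries in replicate 5 and lowest of its SCO libraries in replicate 1.

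Fgf20, a ligand of the Fgf9 subfamily, separated the tissues without passing the test. Its normalized counts were 285, 298, 292 and 142 in SCO, and 101, 134, 52.6, 120 and 0 in hippocampus. Every SCO library was above every hippocampus library. The difference was 2.65 (SE 1.40, 95% interval -0.45 to 5.76, limma adjusted p = 0.408). Fgf20 overlaps Micu3 on the other strand, a gene at a mean of 1860 in SCO and 2404 in hippocampus.

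Other paracrine ligands were named after their values were seen. Fgf10, which signals through the epithelial form of Fgfr2, had normalized counts of 573, 807, 370, 249 and 804 in hippocampus. In SCO they were 2.98, 173, 0 and 458, so the libraries of the tissues overlapped only through replicate 4. The difference was -4.43 (SE 1.65, 95% interval -8.08 to -0.78, limma adjusted p = 0.214). By edgeR the Fgf10 difference was -1.84 with an adjusted p of 0.533, and the means were 561 in hippocampus and 158 in SCO. Fgf5, known for ending the growth phase of hair, had 223, 0, 180, 125 and 0.381 in hippocampus and at most 1.48 in any SCO library. Its difference was -4.22 (SE 1.84, 95% interval -8.30 to -0.15, limma adjusted p = 0.302), and the authors' deposited table gives an adjusted p of 0.00432. Fgf2, basic FGF, had 331, 1108, 343, 509 and 114 in hippocampus and 460, 140, 364 and 272 in SCO, with a difference of -0.40 (95% interval -1.92 to 1.12, limma adjusted p = 0.793). Fgf2 shares exon bases with Nudt6 on the other strand, which had 413, 1456, 479, 702 and 140 in hippocampus and 700, 207, 478 and 456 in SCO, high and low in the same libraries as Fgf2. Fgf2 also shares exon bases with Gm43439, so its reads cannot be told apart from theirs where they overlap. Fgf9, a ligand of neurons and glia, ran from 0.381 to 1240 in hippocampus and from 0 to 488 in SCO. The remaining paracrine ligands Fgf7, Fgf17, Fgf18 and Fgf22 had means between 4.57 and 68.6 normalized counts in either tissue.

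The scatter between libraries of 1 tissue was wide for many of these genes. At most 3 reads in 1 library beside at least 30 reads in another of the same tissue were found for 17 of the 37 genes, in SCO for 12 and in hippocampus for 9. That is 45.9% of the FGF genes, against 36.7% of all genes tested. For 4 of the 37 genes, Fgf1, Fgf14, Fgf18 and Il17rd, the log2 difference and the difference of the means had opposite signs.

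The 4 intracellular FGF genes, which encode the homologous factors that bind voltage-gated sodium channels of neurons, were all estimated below 0, with a median of -0.82, and none was called. Fgf13 had normalized counts of 18497, 12072, 12187, 13385 and 17119 in hippocampus and 5171, 4012, 8309 and 12239 in SCO. Only SCO replicate 4 reached into the hippocampus range. The difference was -1.09 (SE 0.32, 95% interval -1.80 to -0.38, limma adjusted p = 0.106). It passed the test without SCO replicate 4, at a limma adjusted p of 0.038, and in the authors' deposited table, at 0.0463. SCO replicate 4 also had the highest sum of neuronal markers of the SCO libraries, 263670, and what this has to do with the Fgf13 value was not tested.

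Fgf14, the homologous factor gene of spinocerebellar ataxia, had 3653, 5060, 3966, 3192 and 2891 in hippocampus. In SCO it had 2260, 5821, 2044 and 5726. The SCO libraries fell into a low pair and a high pair on both sides of the hippocampus range, and the difference was -0.06 (SE 0.38, 95% interval -0.90 to 0.77, limma adjusted p = 0.948). Fgf14 shares exon bases with Gm28932 on the other strand, whose reads it can share. Gm28932 had 70.1, 874, 354 and 1305 in SCO, low and high in the same libraries. In hippocampus replicate 2, where Fgf14 was highest of that tissue, Gm28932 was lowest at 114. Fgf12 ran from 3431 to 9060 in hippocampus and from 2969 to 3829 in SCO, with a difference of -0.54 (95% interval -1.25 to 0.17). Fgf11 had means of 264 ± 233 (SD, n = 5) and 37.1 ± 34.8 (SD, n = 4), with a difference of -3.26 (95% interval -6.51 to -0.00, limma adjusted p = 0.322).

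**Figure D4:**
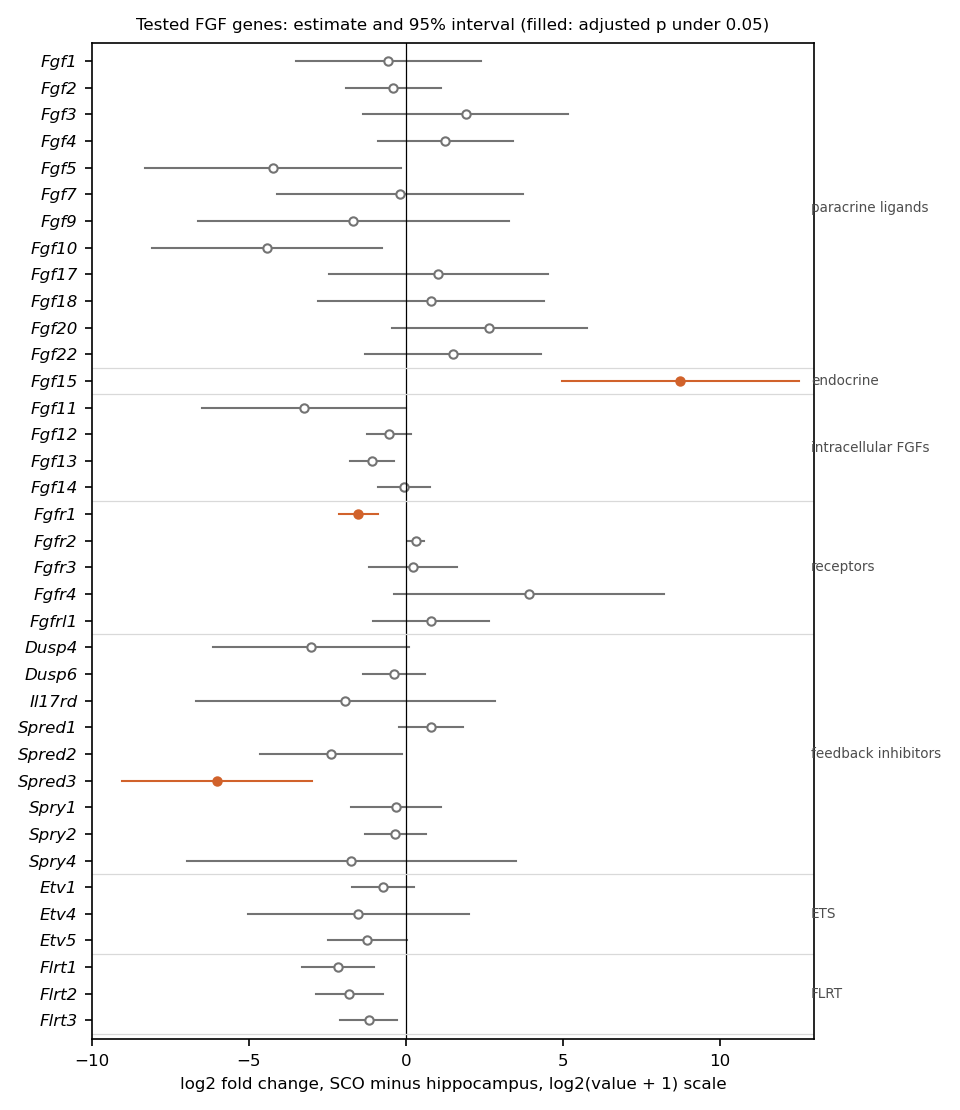
Log2 difference, SCO minus hippocampus, on the log2(normalized count + 1) scale for the 37 tested FGF genes (points) with 95% intervals of limma (bars), 5 hippocampus and 4 SCO libraries; filled points have an adjusted p under 0.05. The filled points are Fgf15 at 8.74, Fgfr1 at -1.52 and Spred3 at -6.01.

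Fgfr1 was the receptor that fell. This receptor tyrosine kinase, known to be needed for hippocampal growth, had normalized counts of 2497, 3011, 2757, 2805 and 4115 in hippocampus replicates 1 to 5. In SCO replicates 1 to 4 it had 955, 1208, 775 and 1330. Every SCO library was below every hippocampus library. The mean was 1067 ± 249 (SD, n = 4) in SCO against 3037 ± 630 (SD, n = 5) in hippocampus, which makes it 2.85 times as high in hippocampus. The difference was -1.52 (SE 0.29, 95% interval -2.15 to -0.88, limma adjusted p = 0.0186). Of the 9 tests that left out a library, 8 kept the call, and without hippocampus replicate 3 the limma adjusted p was 0.0502. In the authors' deposited table the difference was -1.51 with an adjusted p of 8.46e-08. Fgfr1 (ENSMUSG00000031565.18) is a plus-strand gene of chromosome 8 (GRCm38), with its start at 25513654 and its end at 25575718, and the antisense gene Gm16159 that overlaps it had a mean of 87.1 reads per library.

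The level of Fgfr2, the receptor whose splice forms mark epithelium and mesenchyme, cannot be read from this table. Its listed normalized counts were 70428, 61684, 69335, 67635 and 76110 in hippocampus. In SCO they were 87910, 77770, 88976 and 86830. Every SCO library was above every hippocampus library, with a difference of 0.31 (SE 0.11, 95% interval 0.06 to 0.56, limma adjusted p = 0.208), and the authors' deposited table gives an adjusted p of 0.0332. In the GENCODE M21 annotation of GRCm38, however, Fgfr2 spans chromosome 7 from 130162451 to 133123350 on the minus strand. Its annotated exons overlap those of the gene Ctbp2. Inside that span lie 43 other genes of the table. The reads listed for Fgfr2 were 0.955 to 1.01 times the summed reads of those genes in the 9 libraries. Of these genes 41 were tested and 1 was called, Oat, the ornithine aminotransferase gene. Oat rose from 11936 to 27451 normalized counts (log2 difference 1.21, limma adjusted p = 0.0035).

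The same counting appeared across the genome. Among 1779 pairs of a gene wholly inside the span of another, with at least 200 reads on average in the inner gene, the outer gene had at least as many reads as the inner one in all 9 libraries for 1778. This held for 488 of 488 pairs on opposite strands in which no exon of the outer gene overlaps the inner gene. The values match reads counted over the whole gene span, introns included, on either strand, and given to each gene they overlap. Levels of different genes are not compared here for that reason. The choice of genes shown in every library did use the level per kb of exon, and Fgfr2 ranked first among the receptors on these shared reads.

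**Figure D5:**
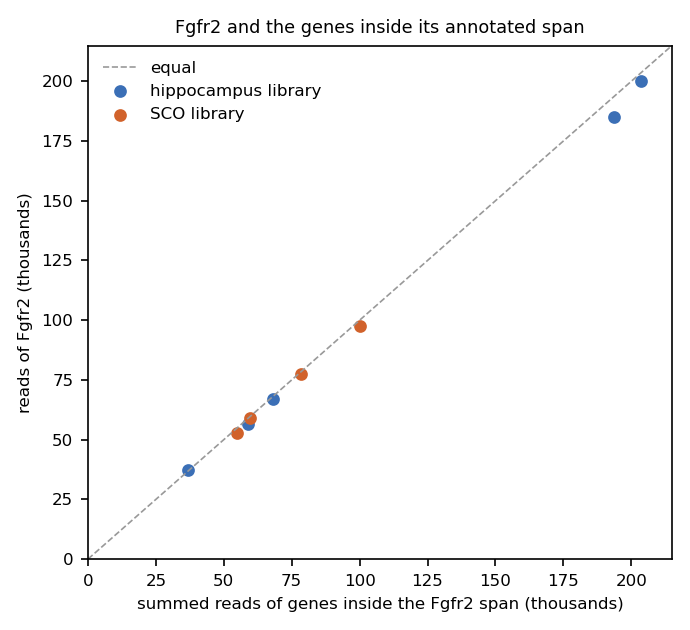
Reads listed for Fgfr2 against the summed reads of the 43 genes inside its annotated span, 1 point for each of 5 hippocampus and 4 SCO libraries, with a dashed line of equality. All 9 points lie near the line, at 0.955 to 1.01 times the sum.

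The other receptors did not pass the test. Fgfr3, a receptor of radial glia and astrocytes, ran from 148 to 521 in hippocampus and from 130 to 592 in SCO, with a difference of 0.22 (95% interval -1.17 to 1.61, limma adjusted p = 0.884). Fgfr4, the receptor through which endocrine Fgf15 acts on the liver, had 0, 3.30, 60.9, 0 and 0 in hippocampus and 0, 54.6, 365 and 223 in SCO. Its difference was 3.92 (SE 1.95, 95% interval -0.39 to 8.23, limma adjusted p = 0.372). SCO replicate 1, without a read of Fgfr4, had the highest Fgf15 value. Fgfrl1, a receptor without the kinase domain, had means of 177 ± 138 (SD, n = 5) in hippocampus and 312 ± 249 (SD, n = 4) in SCO. Fgfr3, Fgfr4 and Fgfrl1 were named after their values were seen.

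Spred3 was the feedback inhibitor that fell. Spred proteins hold back RAS and RAF at the membrane, and Spred3 is the family member known mainly from brain. Its normalized counts were 352, 342, 225, 240 and 150 in hippocampus replicates 1 to 5. In SCO replicates 1 to 4 they were 1.49, 91.6, 0 and 0. Replicate 2 held nearly all of the SCO reads and was still below every hippocampus library. The mean was 262 ± 84.8 (SD, n = 5) in hippocampus and 23.3 ± 45.5 (SD, n = 4) in SCO, a ratio of 11.3. The difference was -6.01 (SE 1.37, 95% interval -9.04 to -2.98, limma adjusted p = 0.0428). It is larger than the ratio of the means because SCO replicates 1, 3 and 4 are at or near 0. Of 19 alternative settings 13 ended the call, among them edgeR at -3.55 with an adjusted p of 0.295. Of the 9 tests that left out a library, only the one without SCO replicate 2 kept it, at a limma adjusted p of 0.00429, and the other 8 gave at most 0.107. In the authors' deposited table the difference was -3.50 with an adjusted p of 0.125.

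The promoter of Spred3 is shown because this is the called gene with a match in the RefSeq promoter table (GRCm38.p6). The window is the 250 bases before the start site on the minus strand, chr7:29168648-29168897. It lies directly before the GENCODE M21 protein-coding transcript of Spred3, which starts at 29168647, and inside the gene's annotated span, which other transcripts extend to 29170411. Capitals mark matches to the letters TAATCC, bound by Otx homeodomain factors, and GGGCGG, bound by Sp factors, searched on both strands together with CCGGAA of ETS factors.

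Spred3: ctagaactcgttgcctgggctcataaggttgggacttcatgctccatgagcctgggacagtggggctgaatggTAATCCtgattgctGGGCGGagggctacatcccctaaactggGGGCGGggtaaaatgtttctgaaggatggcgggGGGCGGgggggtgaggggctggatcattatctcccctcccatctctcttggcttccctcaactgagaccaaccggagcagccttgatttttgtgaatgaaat

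Counted from the start site, the TAATCC match begins at position -177 and the GGGCGG matches at -163, -135 and -102, with no overlap between them, and CCGGAA has no match in these letters. Of all 32851 windows of this length in the table, 6.25% hold TAATCC, 32.7% GGGCGG and 12% CCGGAA on either strand. Of the FGF genes, 29 matched the table with 38 windows, of which 2 hold TAATCC, 22 GGGCGG and 5 CCGGAA. The TAATCC windows belong to Spred3 and Il17rd.

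The remaining feedback inhibitors were not called, and of the 9 in the list 8 were estimated below 0, with a median of -1.74. Of all 28150 genes tested, 14457 were below 0. Among the 8 was Il17rd, at -1.93 by limma but 1.40 by edgeR. Its mean was higher in SCO, 364 against 134. Dusp6, the cytoplasmic ERK phosphatase often used as a readout of FGF signalling, had normalized counts of 2971, 1352, 4589, 6115 and 3945 in hippocampus. In SCO it had 1446, 3086, 3205 and 3178. The tissues overlapped throughout, with a difference of -0.38 (SE 0.45, 95% interval -1.37 to 0.61, limma adjusted p = 0.683). Spry2, a Sprouty inhibitor induced by ERK, had 4294, 10507, 4884, 3937 and 1838 in hippocampus and 4237, 2395, 3682 and 3803 in SCO. Its difference was -0.34 (SE 0.44, 95% interval -1.31 to 0.63, limma adjusted p = 0.7104), and the tissues overlapped.

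Further feedback genes were named after their values were seen. Spred1, the gene of Legius syndrome, was the inhibitor estimated above 0, with 919, 1070, 301, 1012 and 482 in hippocampus and 1259, 867, 1699 and 1048 in SCO (difference 0.80, 95% interval -0.23 to 1.83, limma adjusted p = 0.466). Spred2 had 66.2, 982, 871, 808 and 319 in hippocampus and 283, 168, 29.2 and 30.2 in SCO (difference -2.39, 95% interval -4.65 to -0.13, limma adjusted p = 0.290). A single hippocampus library thus lay within the SCO range of Spred2. Dusp4, a nuclear ERK phosphatase, had means of 179 ± 108 (SD, n = 5) and 49.0 ± 51.8 (SD, n = 4), and Spry1 had 410 ± 341 (SD, n = 5) and 282 ± 104 (SD, n = 4). Il17rd, also called Sef, had 916, 0, 0 and 541 in SCO and 47.4, 34.7, 130, 148 and 311 in hippocampus, and Spry4 ran from 0 to 593 in hippocampus and from 0 to 552 in SCO. The SCO libraries of Il17rd lay on both sides of all hippocampus libraries.

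All 3 ETS genes of the Pea3 family, which ERK signalling activates and induces, were estimated below 0 with a median of -1.23, and none was called. Etv1 had normalized counts of 3147, 2372, 4090, 3142 and 2255 in hippocampus and 4182, 1807, 1632 and 758 in SCO. SCO replicate 1 held the highest value of all libraries and the other 3 SCO libraries the lowest. The difference was -0.74 (SE 0.45, 95% interval -1.73 to 0.24, limma adjusted p = 0.482). Etv5 had 1723, 1043, 1534, 2201 and 2033 in hippocampus and 339, 2092, 327 and 1070 in SCO, with a difference of -1.23 (SE 0.57, 95% interval -2.49 to 0.03, limma adjusted p = 0.337). SCO replicate 2 was at the level of the hippocampus for Etv5, while replicates 1 and 3 were below every hippocampus library. Etv4 had means of 183 ± 134 (SD, n = 5) and 120 ± 79.8 (SD, n = 4).

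The 3 FLRT genes encode membrane proteins that bind FGF receptors, Unc5 receptors and latrophilins, and each was lower in SCO at an unadjusted p under 0.05 without passing the adjusted test. Their median difference was -1.80. Flrt2 had normalized counts of 1602, 1603, 2532, 1475 and 1799 in hippocampus and 943, 830, 419 and 199 in SCO. The tissues did not overlap, and the difference was -1.80 (SE 0.48, 95% interval -2.86 to -0.74, limma adjusted p = 0.0772). Flrt3 had 11169, 4416, 11956, 9289 and 10986 in hippocampus and 8102, 2724, 4229 and 2602 in SCO, with a difference of -1.19 (SE 0.40, 95% interval -2.09 to -0.30, limma adjusted p = 0.164). Hippocampus replicate 2 and SCO replicate 1 crossed into the other tissue's range.

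Flrt1 was named after its values were seen, since it missed the call narrowly. It had 628, 626, 721, 796 and 1878 in hippocampus and 312, 182, 100.4 and 212 in SCO, with no overlap. The difference was -2.17 (SE 0.52, 95% interval -3.32 to -1.02, limma adjusted p = 0.0529). Flrt1 passed with TMM-scaled values, at a limma adjusted p of 0.0489, and with a minimum mean of 20, at 0.0456, but not by edgeR, at 0.0946. The authors' deposited table gives adjusted p-values of 0.000201 for Flrt1 and 0.00732 for Flrt2. Flrt1 lies inside the span of Macrod1 and Flrt3 inside that of Macrod2, so their reads can be shared with the host genes. Macrod1 averaged 1678 normalized counts in hippocampus and 576 in SCO (difference -1.44, limma adjusted p = 0.102). Macrod2 fell from 21463 to 9881 (difference -1.19, limma adjusted p = 0.0349).

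Of the other genes of the pathway, co-receptors, FGF-binding proteins and heparan sulfate enzymes gave 1 call in 34 tested, with a median difference of -0.41. Sdc2, the heparan sulfate proteoglycan syndecan-2, had normalized counts of 2317, 1015, 1281, 602 and 2922 in hippocampus. In SCO it had 8428, 12201, 14391 and 10831, each above every hippocampus library. Sdc2 rose by 3.01 (SE 0.44, limma adjusted p = 0.00501), from 1627 ± 962 (SD, n = 5) to 11463 ± 2499 (SD, n = 4).

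Adaptors and kinases from the receptor to ERK gave 1 call in 41 tested, with a median of -0.26. Shc3, the neuronal SHC adaptor, had 57.4, 279, 422, 283 and 613 in hippocampus and 13.4, 5.91, 2.74 and 17.9 in SCO. Shc3 fell by 4.83 (SE 0.96, limma adjusted p = 0.0239). The limma adjusted p was 0.0567 without SCO replicate 2, 0.0572 without SCO replicate 3, and 0.076, 0.0633 and 0.0592 without hippocampus replicates 3, 4 and 5, which ended the call. The neuronal marker sums given above were also lower in every SCO library than in every hippocampus library, and their part in the Shc3 value was not tested.

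Other genes that respond to ERK gave 2 calls in 32 tested, both lower in SCO, with a median of -0.49, or -0.34 with genes lacking reads in a tissue at their bound. Egr3, an immediate-early transcription factor gene of active neurons, had 554, 229, 588, 158 and 1017 in hippocampus, whereas no SCO library held a read of it (0 in all 4). It was at least 136-fold lower in SCO against the SCO floor of 3.75 normalized counts, the mean worth of 3 reads per library, a bound that covers counting error only (limma adjusted p = 0.000842). Fosl2, a FOS-related AP-1 subunit, had 1216, 1321, 85.6, 643 and 1211 in hippocampus and 0, 0, 0 and 23.5 in SCO. Fosl2 fell by 8.17 (SE 1.30, limma adjusted p = 0.00758). By edgeR the adjusted p of Fosl2 was 0.0849, which ended the call. The shares called were 2.94% for the co-receptor list, 2.44% for the adaptor list and 6.25% for the ERK-responsive list, set against the 3.05% of all genes given above.

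Genes of the midbrain-hindbrain boundary, where FGF signalling from the isthmus is strongest in the embryo, were summed in each library. Their sum ran from 0 to 82.6 in hippocampus and was 195, 681, 14.6 and 714 in SCO. Only SCO replicate 3 lay within the hippocampus range. The median difference was 2.08, and none of the 5 tested was called. En2 and Wnt1 had no read in hippocampus, and Cnpy1 none in SCO.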

How the data were processed

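Total RNA was extracted with the RNeasy Micro Kit and libraries were made with the TruePrep kit, per the labels' protocols. The submitters' processing notes name FastQC, HISAT, HISAT2, featureCounts, DESeq2 and GRCm38, and no source used here gives versions, annotation or strand setting. The authors deposited a normalized signal, beside columns that the file headers name as log2 fold change, its standard error and test statistic (scores), and p-values. The signal behaves as gene read counts divided by 1 size factor per library, which the headers do not state. All values (100%) were whole multiples of 1 read within a tolerance of 1e-06, so reads were recovered for the count tests. Columns of other samples numbered 0.

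Genes whose mean reached 1 in either tissue were tested with limma-trend 3.58.1 (R 4.3.3) on log2(value + 1), a pseudocount of 1 that understates the change of low genes, with Benjamini-Hochberg adjustment over 28150 genes. Alternatives were edgeR 4.0.16 with TMM, DESeq2 1.42.0, TMM scaling, other pseudocounts and filters, left-out libraries, a replicate block and robust moderation. Scripts were tested on simulated data. The FGF genes, gene lists and tests were chosen with earlier results of these data known. Per-library values are given for called genes, for the 2 genes of each role with the highest level per kb of exon, and for genes without reads in 1 tissue and a mean of at least 10 in the other. Positions come from GENCODE M21, matched by versioned identifier for 31302 genes and without the version for 31809.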

Additional observations from a re-analysis of the deposited data

Results flagged for a closer look

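In 30 groups of 4 or 5 libraries, over the 16 FGF genes chosen by the naming rule, 6 had 1 library far from the others by Dixon's criterion at 95%, which chance gives in about 1 of 20 groups of normal values. Over all genes tested, 26.2% of such groups met the criterion. Some of the 16 genes were chosen by their level, Fgf3 through the library named here. Fgf1 stood at 992.9 normalized counts in hippocampus replicate 5, the highest of 5. Fgf15 stood at 425.8 in the same library, again the highest. In SCO replicate 1, Fgf3 was highest at 191 and Dusp6 lowest at 1446. Fgf20 was lowest in SCO replicate 4, at 142.2. Spred3 was highest in SCO replicate 2, at 91.55.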

How the results depend on the processing

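Of the 37 FGF genes, the number called higher in SCO (1) was 0 by edgeR, 2 by DESeq2 and 0 without both hippocampus replicate 2 and SCO replicate 4, and 0 to 1 when single libraries were left out. The number called lower (2) was 1 by edgeR, 5 by DESeq2, 3 with TMM-scaled values and 3 with a minimum mean of 20 (Flrt1 added in both), 1 without the filter on low values and 0 to 2 when single libraries were left out. The replicate block on replicates 1 to 4, which also drops hippocampus replicate 5, gave 0 lower (Fgfr1 at -1.40, limma adjusted p = 0.151) and 180 genes called in all, of 859 without it; the Shc3 and Fosl2 calls also ended there, at 0.182 and 0.0728. Same-numbered libraries did not deviate together (correlations -0.001, -0.025, 0.019 and -0.029). This check compares deviations from the mean of each tissue, so it cannot exclude libraries of a shared animal or batch. In all, 503 genes were called by edgeR and 2708 by DESeq2, and 498 to 1077 with a library left out, with 565 without hippocampus replicate 1, 498 without replicate 3 and 564 without SCO replicate 3. The cause was not tested.

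Of 701 gene values under the 19 alternatives, 26 changed sign, none of a called gene. The log2 difference became 0.0074 for Fgf2 without both libraries, 0.087 for Spry1 in the replicate block, -1.53 and -1.50 for Fgf18, 1.40 and 1.44 for Il17rd, 0.046 and 0.079 for Fgf14, and 0.58 and 0.61 for Fgf1 by edgeR and DESeq2. With single libraries left out it ran from -1.71 to 1.102 for Fgf7, -0.83 to -0.01131 for Fgf2, -0.63 to 0.087 for Spry1, -0.033 to 0.69 for Fgfr3, -2.14 to 0.31 for Etv4, -3.35 to 0.14 for Fgf9, -0.56 to 1.92 for Fgf17, -0.31 to 0.20 for Fgf14, -3.48 to 0.0070 for Spry4 and -1.21 to 1.16 for Fgf1. Calls in the pathway lists ranged from 1 to 3 higher and 0 to 1 lower for co-receptors, 0 to 4 lower for adaptors, and 1 to 4 lower and 0 to 1 higher for other ERK-responsive genes.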
